A study of Mus musculus with 20 samples.

Results

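The genes that store, mobilise and burn fatty acids were followed in 2 mouse tissues, as 35 genes chosen by symbol for what their proteins are known to do. They comprise 4 lipases, 2 regulators of a lipase, 6 proteins of the lipid droplet coat, 4 carriers of fatty acids or glycerol, 4 genes of the carnitine shuttle, 13 enzymes of mitochondrial beta oxidation and its electron transfer, and 2 regulators. All 35 were found among the 24062 genes counted. The tissues were inguinal white adipose tissue (iWAT, a fat depot under the skin of the groin) and the pituitary gland of male C57BL/6N mice fed chow, and poly(A) RNA was sequenced. In each tissue 5 libraries are labelled KLF14 KO (replicates 31, 32, 35, 50 and 66) and 5 are labelled wt (replicates 33, 34, 48, 49 and 56), called KO and WT here. Mice labelled KO were 21 weeks old, except replicate 50 at 19 weeks. Mice labelled WT were 21 weeks old in replicates 33 and 34, 19 weeks in 48 and 49, and 18 weeks in 56. The labels do not describe the KO allele. Libraries of different ages are from different animals, but nothing in the labels says so for libraries of the same label and age. The p-values here therefore measure only how far these libraries differ.

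In a fat cell, triglyceride sits in a droplet whose perilipin coat controls the access of lipases. Adipose triglyceride lipase, hormone-sensitive lipase and monoglyceride lipase act in turn and release fatty acids and glycerol. Fatty acids that are burned cross the mitochondrial membranes as carnitine esters and are shortened by repeated rounds of dehydrogenation, hydration, dehydrogenation and thiolysis. White fat is known for storing and releasing fatty acids, whereas the pituitary is an endocrine gland for which lipid storage is not a main task.

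The iWAT libraries held 14.8 to 18.7 M (mega) counts and the pituitary libraries 13.6 to 17.6 M. Levels are given as CPM, counts per mega-count after TMM scaling over all 20 libraries, or as TPM, which also divides by gene length and is used to compare genes. Summed CPM of 10 adipocyte markers lay between 4765 and 17778 in iWAT and at or below 115.5 in the pituitary, and 9 pituitary endocrine markers summed to at least 98310 in the pituitary. The same 9 markers summed to 125.02 CPM in iWAT KO replicate 32 and to at most 2.11 CPM in the other iWAT libraries. Klf14 itself, the labelled target, was higher in pituitary libraries labelled KO (31.8 ± 2.86 CPM) than in those labelled WT (15.9 ± 1.72 CPM; SD, n = 5 each; adjusted p = 7.64e-05, edgeR), and in iWAT it had 1.59 ± 0.809 CPM in KO and 0.937 ± 1.28 CPM in WT. These exon counts do not verify the genotype labels, so every direction below is between labels. In bulk RNA, fewer cells of a type and less RNA per cell cannot be told apart.

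The sequence before the start site was available for 31 of the 35 genes in RefSeq's promoter table (GRCm38.p6) and differed among them in its content of CG dinucleotides. Cpt1b, Fabp4, Fabp5 and Decr1 had no entry. Over the 250 bases before the start the 31 genes had a median of 12 CG dinucleotides, against 6 for all 27025 promoters. At the low end Aqp7 had 0, Plin1 1, Cidec 4, and Plin2, Plin4 and Pdk4 had 6 each. Ppara had 27, Acadl 25, Mgll 23 and Abhd5 22. Mgll and Lipe (18), both higher in iWAT than in the pituitary, had more than the median. Of the oxidation and carnitine shuttle genes, Slc25a20 and Hadh (8 each), Acadvl and Etfdh (9 each) and Eci1 (11) had fewer than the median. Acadm had 12, and the others with an entry had more. The stretches below are from 3 genes at or near 0 in the pituitary, all with few CG dinucleotides, and from 2 oxidation genes present in both tissues with more, Acadl and Hadhb (17). They are cut to the part that lies outside annotated exons (GENCODE vM21), run 5′ to 3′ on the gene's strand, and carry the CG dinucleotides in capitals. The cut leaves 123 bases of Plin1, from 250 bases before the start on, with 0 of its CG dinucleotides. It leaves 85 bases of Hadhb, from 90 bases before the start on, with 9 of its 17.
Cidec, chr6:113435761-113436010, minus strand: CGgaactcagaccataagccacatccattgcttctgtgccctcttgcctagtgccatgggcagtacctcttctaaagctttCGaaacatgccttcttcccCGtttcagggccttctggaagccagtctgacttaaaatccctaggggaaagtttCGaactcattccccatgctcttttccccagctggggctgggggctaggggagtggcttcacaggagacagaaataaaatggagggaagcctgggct
Plin1, chr7:79732904-79733026, minus strand: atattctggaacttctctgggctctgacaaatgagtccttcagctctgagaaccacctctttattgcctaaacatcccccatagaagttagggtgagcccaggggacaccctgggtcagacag
Aqp7, chr4:41048140-41048386, minus strand: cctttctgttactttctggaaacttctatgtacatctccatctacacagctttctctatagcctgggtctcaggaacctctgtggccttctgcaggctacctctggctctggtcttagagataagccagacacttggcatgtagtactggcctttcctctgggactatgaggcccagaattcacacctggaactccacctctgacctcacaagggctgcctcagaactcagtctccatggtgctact
Hadhb, chr5:30155163-30155247, plus strand: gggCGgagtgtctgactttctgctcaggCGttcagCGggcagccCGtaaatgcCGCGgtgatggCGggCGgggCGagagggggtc
Acadl, chr1:66863310-66863559, minus strand: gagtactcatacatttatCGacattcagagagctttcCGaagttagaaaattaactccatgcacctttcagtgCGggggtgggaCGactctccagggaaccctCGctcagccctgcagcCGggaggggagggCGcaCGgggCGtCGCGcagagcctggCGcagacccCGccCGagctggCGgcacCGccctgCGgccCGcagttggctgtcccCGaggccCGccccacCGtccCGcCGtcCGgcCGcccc
The GC box GGGCGG, searched on both strands, was present in 18 of the 31 promoters (58.1%) and in 33% of all promoters. The letters TATAAA were in 0 of the 31 and in 13% of all. The nuclear receptor half-site AGGTCA was in 8 of 31 (25.8%; all promoters 13.8%), and the PPAR response element, AGGTCA then any base N then AGGTCA, in 0 of 31 (all promoters 0.037%). Hadha and Hadhb, which encode the subunits of the mitochondrial trifunctional protein, start head to head with 272 bases between their starts. A match is a description of letters, not a site.

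Most of the set was higher in iWAT than in the pituitary. In WT libraries 32 of the 35 genes were higher in iWAT than in the pituitary and 1 was lower at an adjusted p under 0.05 (edgeR quasi-likelihood test, Benjamini-Hochberg adjustment over 17023 genes), where 79.1% of all genes were called, 38.9% as higher and 40.2% as lower. The median log2 fold change of the 35 genes was 2.41 and that of all genes tested was -0.01. In KO libraries 31 were higher and 1 lower, with 75.1% of all genes called, 37.8% as higher and 37.3% as lower, and the median was 2.60. The libraries of the tissues did not overlap for 32 genes in WT and 31 in KO, against 69.5% and 63.5% of all genes tested. The WT and the KO comparison share no library.

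**Figure D1:**
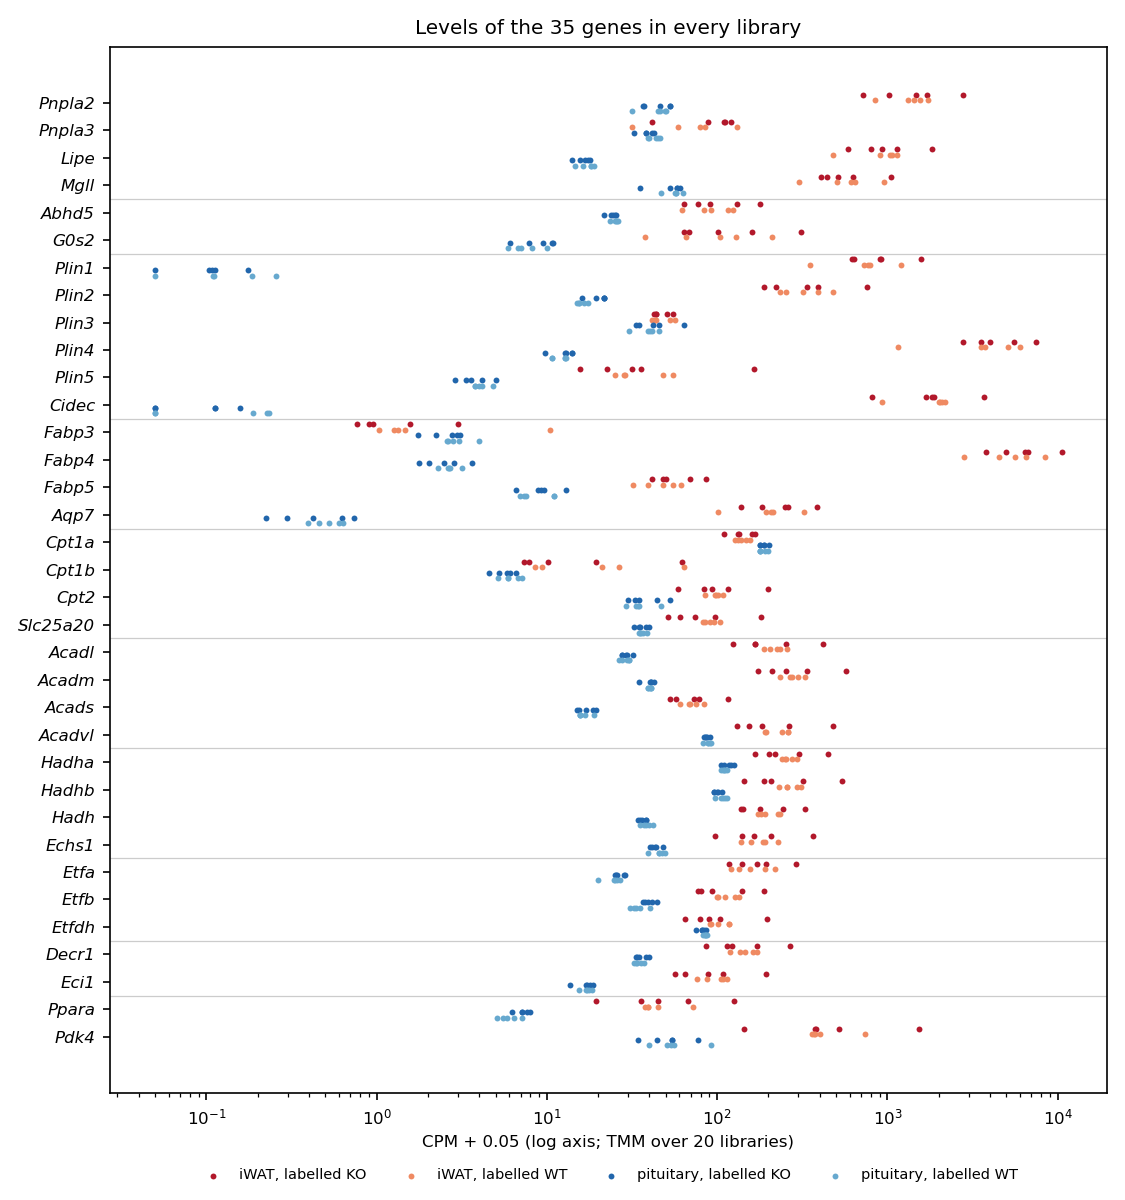
CPM plus 0.05 on a log axis for the 35 genes in every library, with iWAT in red and pituitary in blue, KO dark and WT light, and lines between functional groups. The droplet genes Plin1 and Cidec lie at or near 0 in the pituitary and above 350 CPM in all iWAT libraries, while Cpt1a is the 1 gene whose pituitary libraries lie to the right of all iWAT libraries.

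Among the lipases, Pnpla2 encodes adipose triglyceride lipase, which takes the first fatty acid from triglyceride. It had 1559, 1426, 842, 1729 and 1325 CPM in WT iWAT libraries (replicates 33, 34, 48, 49 and 56), against 31.7, 49.8, 44.97, 45.9 and 49.4 CPM in WT pituitary libraries. Its log2 fold change was 4.93 (SE 0.21). Lipe, hormone-sensitive lipase, had 1143, 1041, 482, 1066 and 898 CPM in WT iWAT and 14.5 to 18.9 CPM in WT pituitary, a log2 fold change of 5.73 (SE 0.24), and replicate 48 was the lowest of the WT iWAT libraries for both lipases. Of the exon bases of Lipe, 24.7% overlap 4732471J01Rik on the other strand, and counting without strand cannot tell their reads apart. Mgll, which cleaves monoglyceride, had a log2 fold change of 3.40. Pnpla3, which encodes a related droplet lipase, had one of only 0.83 (adjusted p = 0.0186, edgeR), and its iWAT and pituitary libraries overlapped, at 31.7 to 131.4 CPM in WT iWAT and 39.1 to 45.8 CPM in WT pituitary. With the replicate number as a block the Pnpla3 difference was 0.71 and did not pass (adjusted p = 0.0566, edgeR, with 3.95e-04 to 0.0454 over its other alternatives). The proteins that tune Pnpla2 were also higher in WT iWAT: Abhd5, its coactivator, by 1.90 and G0s2, its inhibitor, by 3.83 on the log2 scale.

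In the droplet coat 5 of the 6 genes were higher in WT iWAT, and Plin1 and Cidec were at or near 0 in the pituitary. Cidec, which fuses droplets into one large droplet, had 2019, 2083, 930, 2170 and 2029 CPM in WT iWAT libraries. In the pituitary it had 0 to 2 reads a library in KO and 0 to 3 in WT. Plin1, the perilipin that gates lipolysis in fat cells, lay at 620 to 1582 CPM in KO iWAT and at 351.5 to 1200 CPM in WT iWAT, with 0 to 2 reads in each KO and 0 to 3 reads in each WT pituitary library, so no fold is given for either gene. Plin4, a perilipin of nascent droplets, had 3905 ± 1842 CPM in WT iWAT and 12.0 ± 1.16 CPM in WT pituitary (SD, n = 5 each; log2 fold change 8.33). Plin2, which coats droplets in most cell types, was higher in WT iWAT by 4.38 and Plin5, which tethers droplets to mitochondria, by 3.17. Plin3 did not pass the test (47.4 ± 6.86 CPM in WT iWAT and 39.3 ± 5.60 CPM in WT pituitary, log2 fold change 0.25, SE 0.12, adjusted p = 0.0724, edgeR), and it passed without WT iWAT replicate 48 and without WT pituitary replicate 34, at 0.33 and 0.30.

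By TPM, the perilipins of the tissues differed in kind as well as in amount. Of summed perilipin TPM in iWAT, Plin4 made up 52.7% ± 4.17 in KO and 50.2% ± 7.54 in WT, and Plin1 31.8% ± 2.60 in KO and 31.4% ± 3.22 in WT (SD, n = 5). In the pituitary Plin3 made up 57.3% ± 5.52 in KO and 59.0% ± 3.92 in WT, and Plin2 30.7% ± 4.01 in KO and 27.5% ± 2.37 in WT. The fatty acid binding genes of the set, Fabp3, Fabp4 and Fabp5, showed a like exchange. Of their summed TPM, Fabp4 was 99.3% in iWAT of both labels. In the pituitary, where all were low, Fabp5 made up 55.3% ± 4.38 in KO and 50.9% ± 4.76 in WT. Other genes of that family were not in the sum.

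Fabp4, the fat cell's fatty acid carrier, was the most abundant of the 35 genes in iWAT by TPM. It had 8373, 5589, 2824, 6519 and 4549 CPM in WT iWAT libraries, against 2.23, 2.57, 3.10, 2.61 and 2.63 CPM in WT pituitary libraries, a log2 fold change of 11.02 (SE 0.36). Aqp7, the channel through which glycerol leaves the fat cell, had 207 ± 78.7 CPM in WT iWAT and 0.473 ± 0.0993 CPM in WT pituitary (log2 fold change 8.72). Fabp5 was higher in WT iWAT by 2.41. Fabp3, the heart and muscle form, was low in both tissues: it had 1.42, 1.28, 10.3, 1.21 and 0.983 CPM in WT iWAT and 2.54 to 3.92 CPM in WT pituitary. Its log2 fold change of 0.03 (SE 0.63, adjusted p = 0.966, edgeR) rested on WT iWAT replicate 48, and without that library it was -1.26 and passed the test.

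The carnitine shuttle held the exception. Cpt1a, the form of carnitine palmitoyltransferase that most tissues use to load fatty acids onto carnitine, was lower in iWAT than in the pituitary in both labels. It had 155.9, 126.5, 147.8, 138.1 and 132.3 CPM in WT iWAT, against 178.3, 199.0, 179.0, 178.0 and 191.2 CPM in WT pituitary (log2 fold change -0.42, SE 0.07, adjusted p = 1.04e-04, edgeR). In KO the levels were 141 ± 23.3 CPM in iWAT and 187 ± 8.94 CPM in the pituitary (SD, n = 5 each; log2 fold change -0.42, adjusted p = 0.00514, edgeR). By CPM the groups did not overlap in either label. By TPM they overlapped in KO, at 50.2 to 96.2 in iWAT and 86.4 to 101.4 in the pituitary. Cpt1b, the muscle and brown fat form, was higher in WT iWAT by 2.07 (SE 0.51, adjusted p = 0.00298, edgeR), and by 1.43 without WT iWAT replicate 48. The later steps, Cpt2 and the carnitine carrier Slc25a20, were higher in WT iWAT by 1.44 and 1.32. Of the exon bases counted for Cpt1b (chr15:89416405-89425862, minus strand, mm10), 94.8% belong also to ChkbCpt1b, a read-through gene on the same strand, so its counts hold reads of both.

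Each of the oxidation and electron transfer genes was higher in WT iWAT. The acyl-CoA dehydrogenases, which open each round for chains of a given length, were higher in WT iWAT by 2.93 (Acadl, long chains), 2.79 (Acadm, medium), 2.09 (Acads, short) and 1.35 (Acadvl, very long) on the log2 scale. The trifunctional protein genes Hadha and Hadhb were higher by 1.24 and 1.31, Hadh, the short-chain hydroxyacyl-CoA dehydrogenase, by 2.36, and Echs1, the short-chain hydratase, by 1.97. Hadhb, the thiolase subunit, had 256, 231, 312, 293 and 256 CPM in WT iWAT and 96.7, 108, 114, 110.5 and 105.8 CPM in WT pituitary, with no overlap. The electron transfer flavoprotein subunits Etfa and Etfb were higher by 2.72 and 1.71. Etfdh, which passes their electrons to ubiquinone, was higher by only 0.27 in WT (adjusted p = 0.0128, edgeR), did not pass in KO (0.38, SE 0.26, adjusted p = 0.199, edgeR), and did not pass in WT with total counts in place of TMM (0.17). Decr1 and Eci1, which prepare unsaturated chains, were higher by 2.07 and 2.497.

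The regulators Ppara, a nuclear receptor that drives fatty acid oxidation genes, and Pdk4, a kinase that inhibits pyruvate dehydrogenase, were higher in WT iWAT by 2.95 and 2.93. By TPM the order of the genes differed between the tissues. In WT iWAT it was led by Fabp4 (20322 ± 6726 TPM), Cidec (2554 ± 666), Plin4 (1580 ± 690) and Pnpla2 (1191 ± 241), and Plin4 and Pnpla2 did not differ beyond their spread. In WT pituitary it was led by Hadhb (113 ± 3.27 TPM), Cpt1a (94.8 ± 5.78), Acadvl (88.8 ± 4.96), Etfb (83.7 ± 7.32) and Etfdh (82.1 ± 5.52; SD, n = 5), of which the last 3 lay within their spread of each other.

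Of 70 other genes of fatty acid uptake, storage, lipolysis and oxidation, 51 were higher and 11 lower in WT iWAT, and 51 were higher and 8 lower in KO iWAT (edgeR, adjusted p under 0.05). Of all genes tested, 38.9% were called as higher and 40.2% as lower in WT, and 37.8% and 37.3% in KO. Far higher in WT iWAT were Adrb3, the fat cell's adrenergic receptor (157 ± 53.8 CPM, at or near 0 in the pituitary), the carboxylesterase Ces1f (239 ± 81.8 CPM, at or near 0 in the pituitary), Cd36, a fatty acid uptake protein (log2 fold change 7.52), and Lpl, lipoprotein lipase (7.27). Lower in WT iWAT were the acyl-CoA synthetases Acsl6 (-7.26) and Acsl3 (-2.69), the nuclear receptor Nr4a1 (-2.19) and Fitm1, a droplet formation gene that had 0 to 5 reads in each WT iWAT library and 1.10 ± 0.342 CPM in WT pituitary. In KO iWAT the 4 lowest were Acsl6 (-6.57), Acsl3 (-2.74), the glycerol channel Aqp3 (-2.11) and Nr4a1 (-2.07), and Cd36 (8.19) and Lpl (7.21) were again far higher.

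Between labels in iWAT, none of the 35 genes passed the test. The question of this comparison, as the design states it, is what differs between KO and WT in each tissue. Of the 35 genes 0 were called (edgeR), and 0 of all 16105 genes tested were called, which is 0%. At an unadjusted p under 0.05 there were 0 of the 35 genes and 89 of all genes (0.553%) by edgeR. By DESeq2 and by limma voom the counts were likewise 0, and 0 of the 35 had an unadjusted p under 0.05 by either, against 127 (0.789%) and 253 (1.57%) of all genes. The log2 fold changes of the 35 genes had a median of 0.08, 26 were positive and 9 negative, and their SEs ran from 0.11 (Plin3) to 0.75 (Fabp3). The KO and WT libraries overlapped for all 35 genes, and they were apart for 0.0807% of all genes tested.

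For the 5 genes of lowest unadjusted p the values follow, without a call. Fabp3 had 2.97, 1.51, 0.858, 0.904 and 0.717 CPM in KO iWAT (replicates 31, 32, 35, 50 and 66), against 1.42, 1.28, 10.3, 1.21 and 0.983 CPM in WT iWAT (log2 fold change -1.15, SE 0.75). One WT library, replicate 48, stood above all others, and without it the log2 fold change was 0.17. Fabp5 had a log2 fold change of 0.29 (SE 0.22), Plin1 of 0.25 (SE 0.33) and Pnpla3 of 0.26 (SE 0.37). Plin5 had 15.6, 31.7, 22.5, 164.8 and 35.6 CPM in KO iWAT, against 28.3, 25.2, 28.9, 48.2 and 55.1 CPM in WT iWAT (log2 fold change 0.50, SE 0.60). Its highest library, KO replicate 50, carried the sign: without it the log2 fold change was -0.51. All 5 had an adjusted p of 0.99995 (edgeR).

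KO iWAT replicate 50 set the sign of most point estimates. It was the highest of the 10 iWAT libraries in 30 of the 35 genes and in 30.7% of all genes. It was the lowest in 1 of the 35 genes and in 25.9% of all genes. Its CPM was a median of 1.98 times the median of the other 9 iWAT libraries, with 6.14 times for Cpt1b, 5.71 for Plin5, 4.09 for Pdk4 and 3.21 for Ppara, and below 1 for Cpt1a (0.794) and Fabp3 (0.705). Without it the median log2 fold change of the 35 genes was -0.22, with 4 positive and 31 negative and 0 called (edgeR). It is also the 1 KO library of 19 weeks: among the 21-week libraries, 4 KO and 2 WT, the median was -0.23, again with 4 positive and 0 called. With age as a covariate the median was 0.20 with 31 positive. The median was -0.11 by limma voom with quality weights, which gives discordant libraries less weight.

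**Figure D2:**
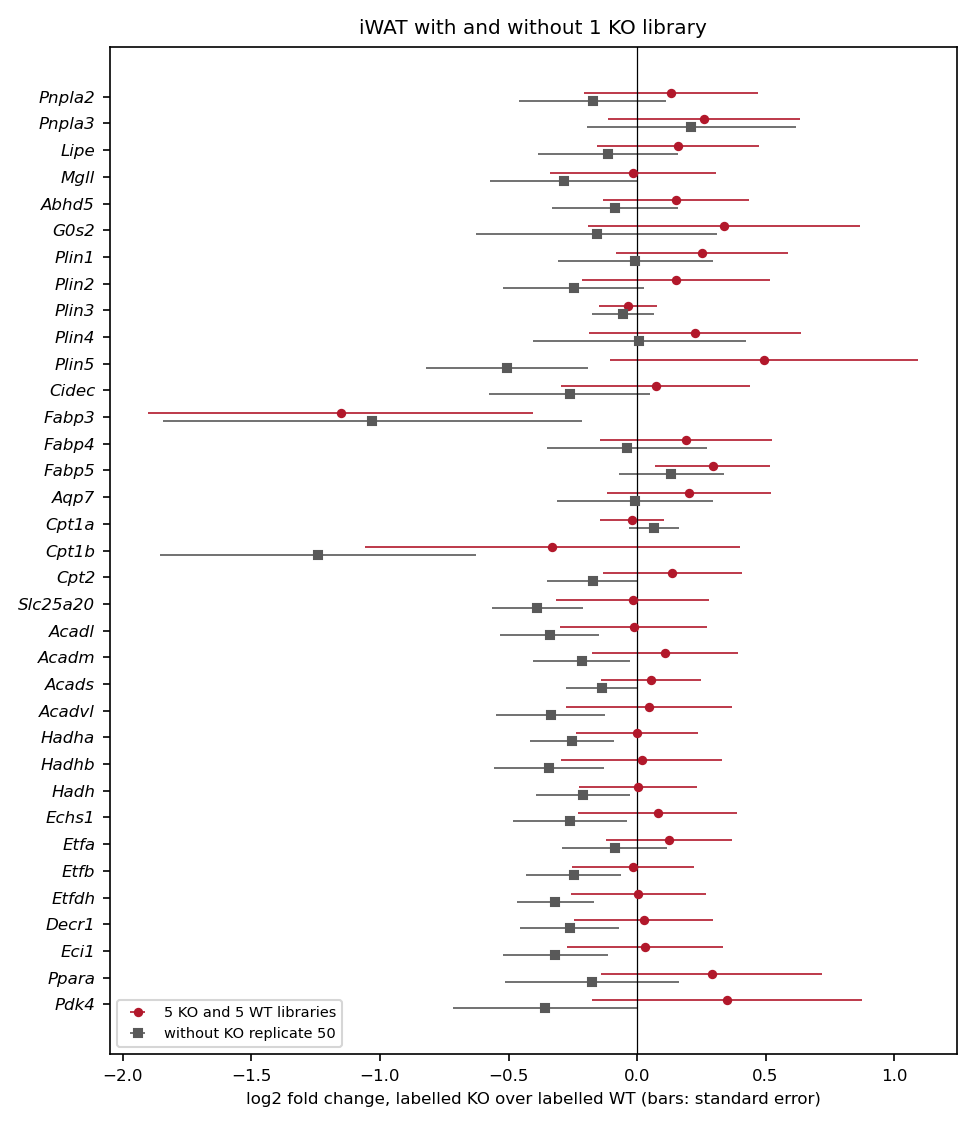
Log2 fold changes of KO over WT in iWAT for the 35 genes, with standard errors as bars, over all 10 libraries (circles) and without KO replicate 50 (squares). Of the circles 26 lie right of 0, and of the squares 4 do.

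The spread of these genes between iWAT libraries was wide and shared. Over the 10 iWAT libraries their median coefficient of variation was 36.5%, against 20.1% for all genes tested and 15.2% for the 10847 genes over 10 CPM. In the pituitary it was 9.87% over the 32 genes tested, against 10.2% for all genes and 7.80% for the 11084 genes over 10 CPM. In iWAT, KO replicate 31 was the lowest library in 21 of the 35 genes and WT replicate 48 in 10, where they were the lowest for 13.0% and 17.4% of all genes tested. Hadhb had 144, 319, 188, 539 and 207 CPM in KO iWAT and 256, 231, 312, 293 and 256 CPM in WT iWAT, so the KO libraries held both the lowest and the highest value. Plin3 (12.3%) and Cpt1a (12.4%) were among the least variable.

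WT replicate 48 was low for many of these genes, though not for all. It was the lowest iWAT library for Plin4 (1154 CPM, with 2762 to 7412 in the other libraries), Plin1 (351.5 CPM) and Fabp4 (2824 CPM), and Cidec (930 CPM) was lower only in KO replicate 31 (810 CPM). In the same library Hadhb (312 CPM), Acadvl (260 CPM), Hadha (275 CPM) and Etfdh (117 CPM) lay at or above the median of the WT libraries, whereas Cpt2, Acads, Hadh, Echs1, Etfa, Etfb, Decr1 and Eci1 were lowest there of the WT libraries. Cpt1b was highest there, at 64.1 CPM, with 62.4 CPM in KO replicate 50 and 7.29 to 26.5 CPM in the other 8 libraries. The share of Cpt1b in the summed TPM of Cpt1a and Cpt1b was between 6.74% and 45.8% in KO iWAT and between 7.48% and 39.2% in WT iWAT, against 3.47% to 4.88% in KO pituitary and 3.65% to 5.58% in WT pituitary.

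**Figure D3:**
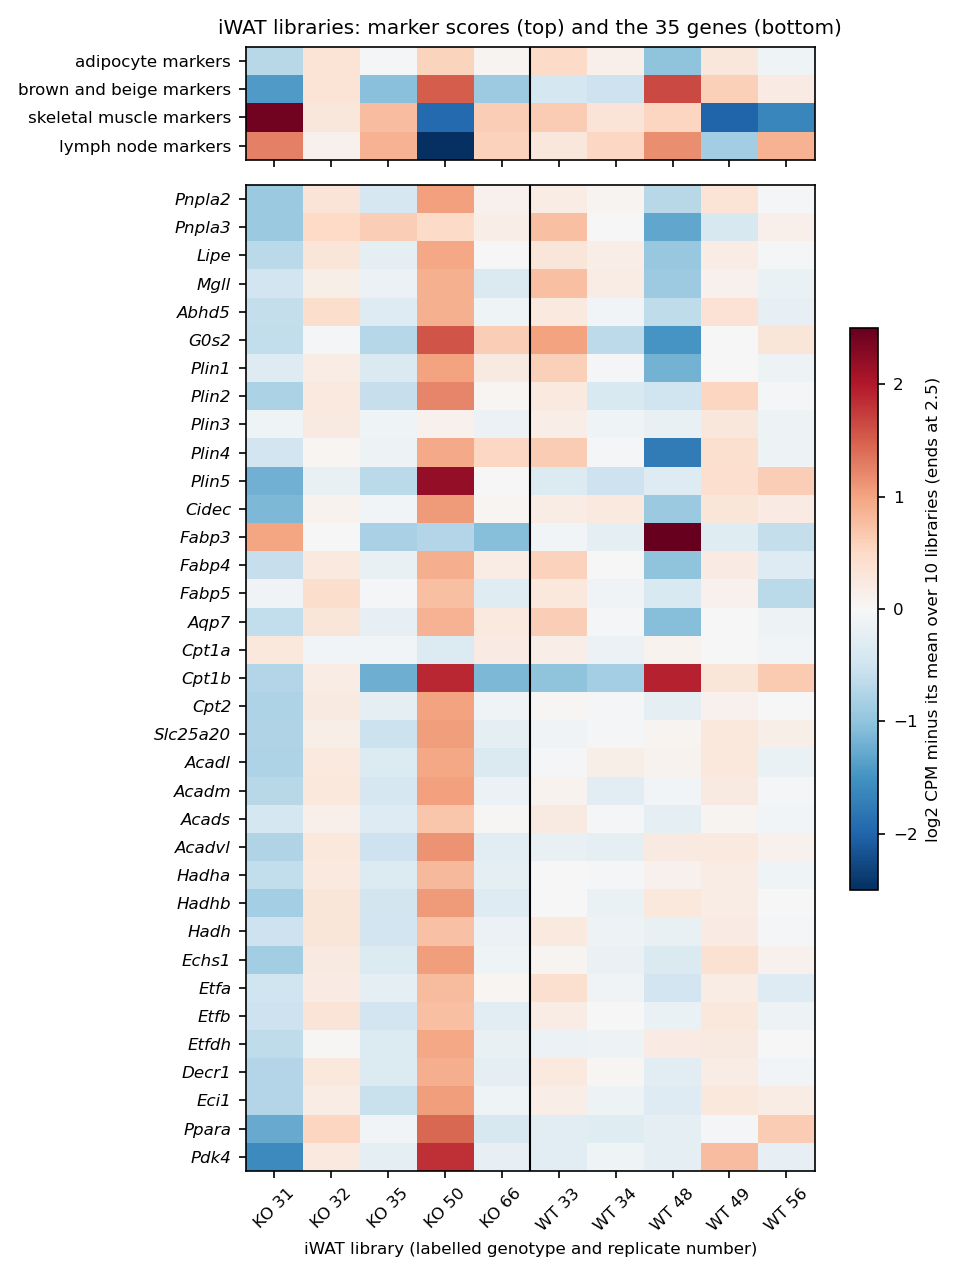
Log2 CPM minus its mean over the 10 iWAT libraries, KO left of WT, for 4 marker scores (top) and the 35 genes (bottom), with the colour scale ending at 2.5. KO replicate 50 is above the mean in nearly all genes and far below it for lymph node and muscle markers, and WT replicate 48 is low in most droplet genes and high in Cpt1b and Fabp3.

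Markers of other cell types moved between the same libraries. The fits on marker scores below describe what moved together, and whether cell content made these differences was not tested. A score is the mean log2 CPM of a marker list. The lymph node score (12 B and T cell markers) was 0.91 in KO replicate 50 and between 4.81 and 6.94 in the other iWAT libraries, and summed CPM of the list was 24.2 there and 395 to 1763 in the others. Summed CPM of 5 red blood cell markers was 7766 in KO replicate 50 and 928 to 4005 in the others. The skeletal muscle score was highest in KO replicate 31, at 5.30, and low in KO replicate 50 (0.95), WT replicate 49 (0.89) and WT replicate 56 (1.26). The adipocyte score ran from 7.53 in WT replicate 48 to 9.08 in KO replicate 50. The brown and beige score (8 markers of fat cells that make heat) was 4.34 in WT replicate 48 and 4.21 in KO replicate 50, and 1.28 to 3.30 in the others.

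Slopes of each gene on these scores were fitted in the 10 iWAT libraries with genotype in the model (edgeR, adjusted p under 0.05), as a description of what moved together. On the adipocyte score 15 genes had a positive slope and Fabp3 a negative one, where 14.4% of all genes were called, 10.2% as positive and 4.27% as negative. They were Pnpla2, Pnpla3, Lipe, Mgll, Abhd5, G0s2, Plin1, Plin2, Plin4, Cidec, Fabp4, Aqp7, Acads, Etfa and Decr1. Plin2 lay just inside the threshold, and Echs1, Eci1, Hadh, Etfb and Cpt2, also with positive slopes, just outside it (adjusted p = 0.0523, 0.0601, 0.0613, 0.0677 and 0.0714, edgeR). Whether the slopes differed between the storage genes and the oxidation genes was not tested. The marker list holds none of the 35 genes. Without WT replicate 48, or without the 2 libraries farthest from the median score, 0 were called, without KO replicate 31 there were 6, and with total counts in place of TMM 4. Over all genes, 0 to 2180 were called on this score when single libraries were left out. On the skeletal muscle score 11 genes had a negative slope and 0 a positive one (7.4% of all genes called, 4.65% as negative and 2.74% as positive), with the steepest in Plin5 (-0.64 log2 CPM per unit of score), and 0 were called without KO replicate 31, without KO replicate 50 or without the 2 farthest libraries. Leaving out any 1 library moved this count by over 1.5 times, to values between 0 and 28, with 7 to 5010 called over all genes.

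Slopes on 2 more scores were added after seeing the data. On the brown and beige score Cpt1b was the 1 gene of the 35 called, with 1.09 log2 CPM per unit of score (SE 0.12, adjusted p = 0.0262, edgeR), among 5 of all genes (0.031%). That call was lost without KO replicate 50, and in 8 of the 14 alternatives in all, while 24 of the 35 genes were called without WT replicate 48. Over all genes, 0 to 3779 were called on this score when single libraries were left out. On the lymph node score 25 genes had a negative slope and Cpt1a a positive one (0.08), where 36.4% of all genes were called, 15.7% as negative and 20.6% as positive. Without KO replicate 50, 8 of the 35 were called, and single libraries left out gave 3313 to 5952 calls over all genes. With the adipocyte, lymph node, skeletal muscle or brown and beige score as a covariate, the median log2 fold change of KO over WT was -0.02, -0.19, 0.20 or 0.17 in turn, with 0 genes called in each.

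**Figure D4:**
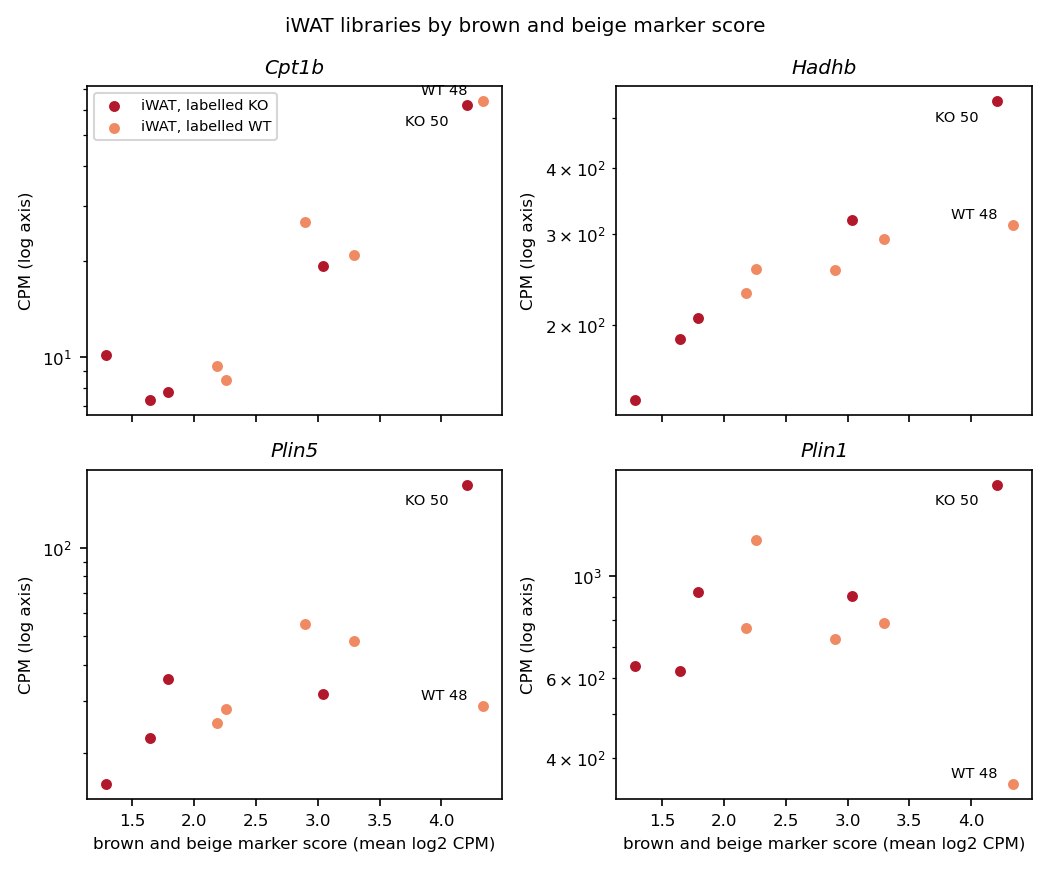
CPM (log axis) of 4 genes in the 10 iWAT libraries against the brown and beige marker score, KO dark and WT light. Cpt1b is highest in the 2 libraries at the right, Hadhb is higher toward the right, Plin5 is high in KO replicate 50 only, and Plin1 is highest in KO replicate 50 and lowest in WT replicate 48.

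In the pituitary, where libraries varied little, none of the 32 genes tested passed the test between labels, and Plin2 came nearest. Of the 35, 32 passed the filter on low counts, and Plin1, Cidec and Aqp7 did not. Of these 32, 0 were called by edgeR, DESeq2 or limma voom, against 0.549%, 1.76% and 0.689% of 16389 genes (90 genes by edgeR). At an unadjusted p under 0.05 there were 3 by edgeR, 3 by DESeq2 and 4 by limma voom, against 10.9%, 10.4% and 13.2% of all genes. The median log2 fold change was 0.00 (15 positive, 17 negative), and KO and WT libraries were apart for 0 of the 32 genes, against 2.85% of all genes tested. SEs ran from 0.04 (Acadvl) to 0.27 (Pdk4), against 0.11 to 0.75 in iWAT.

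Plin2 (chr4:86656565-86670059, minus strand, mm10) had 16.0, 19.4, 21.5, 21.6 and 21.4 CPM in KO pituitary (replicates 31, 32, 35, 50 and 66), against 15.3, 15.3, 17.4, 14.9 and 16.4 CPM in WT pituitary. The KO libraries were higher except replicate 31, which lay among the WT libraries. The log2 fold change was 0.33 (SE 0.09, adjusted p = 0.129, edgeR). Without KO replicate 31 it was 0.40 (SE 0.08) and passed the test (adjusted p = 0.0351, edgeR). Over the other alternatives the adjusted p lay between 0.0635 (DESeq2) and 1 (edgeR). The highest came from 1 fit over all 20 libraries, which uses 1 estimate of spread per gene for both tissues. The log2 fold change of Plin2 was 0.33 there too. Etfb had 37.8, 41.5, 36.6, 39.3 and 44.0 CPM in KO pituitary, against 33.5, 35.3, 40.3, 30.9 and 32.3 CPM in WT pituitary (log2 fold change 0.21, SE 0.08, adjusted p = 0.288, edgeR). Its groups overlapped through WT replicate 48. Ppara had 7.13, 7.55, 7.94, 7.13 and 6.17 CPM in KO pituitary, against 5.04, 7.11, 5.74, 5.50 and 6.37 CPM in WT pituitary (0.27, SE 0.12, adjusted p = 0.403, edgeR). The adipocyte markers summed to 81.3 to 115.5 CPM in KO pituitary and 73.2 to 85.1 CPM in WT pituitary, and the macrophage markers to 356.6 CPM in KO replicate 50 and at most 169 CPM in the other pituitary libraries. The blood markers summed to 1107, 1127, 1766, 2436 and 1989 CPM in KO pituitary (replicates 31, 32, 35, 50 and 66), against 1184 to 1692 CPM in WT pituitary. KO replicates 35, 50 and 66 were above the range of the WT libraries, and KO replicates 31 and 32 were below it. With the blood score or the macrophage score as a covariate the log2 fold change of Plin2 was 0.29 each time and did not pass the test. The part of the adipocyte markers in these values was not tested.

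**Figure D5:**
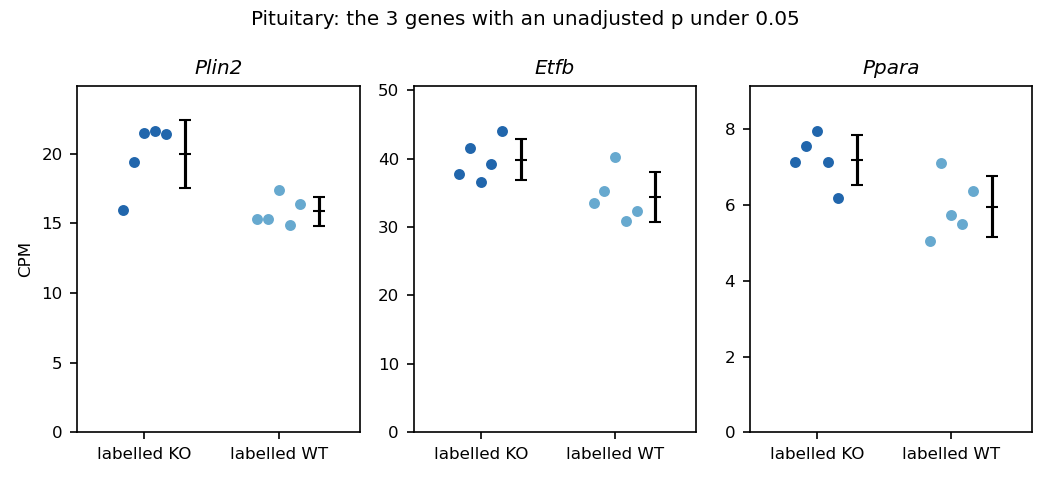
CPM of Plin2, Etfb and Ppara in the 5 KO and 5 WT pituitary libraries (points), with mean and SD as the bar beside them and axes starting at 0. In Plin2 4 KO libraries lie above all WT libraries and 1 lies among them.

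Hadhb (99.8 ± 4.76 CPM in KO and 107 ± 6.51 CPM in WT pituitary, log2 fold change -0.10, SE 0.05, adjusted p = 0.503) and Pnpla3 (38.5 ± 3.83 CPM in KO and 42.6 ± 3.13 CPM in WT, -0.15, SE 0.07, adjusted p = 0.511; edgeR; SD, n = 5 each) completed the 5 genes with the smallest p. Hadha and Hadhb, whose products form 1 complex, had point estimates of opposite sign. The log2 ratio of Hadha to Hadhb CPM was 0.21 ± 0.08 in KO pituitary (0.14 to 0.31) and 0.04 ± 0.11 in WT pituitary (-0.07 to 0.20; SD, n = 5 each). These ranges overlapped, and the ratio was not tested, since it was picked after its values were seen.

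Of the 70 other genes of the pathway, 1 was called between labels in the pituitary and 0 in iWAT, against 0.549% and 0% of all genes tested (edgeR). In iWAT 68 could be tested, and 0, 1 and 2 of them had an unadjusted p under 0.05 by edgeR, DESeq2 and limma voom. Slc27a2, a very long-chain acyl-CoA synthetase and fatty acid transporter, had 29.8, 29.8, 26.6, 32.1 and 27.9 CPM in KO pituitary, against 21.6, 18.7, 22.2, 21.4 and 23.9 CPM in WT pituitary. All KO libraries lay above all WT libraries. The log2 fold change was 0.44 (SE 0.07, adjusted p = 0.0138, edgeR). The call was lost in 3 of 23 alternatives, namely without WT replicate 49, among 21-week mice and in 1 fit over all 20 libraries. Over the alternatives the adjusted p lay between 7.57e-05 (DESeq2) and 1 (edgeR). The fit over all 20 libraries uses 1 estimate of spread per gene for both tissues. Its log2 fold change was also 0.44, with an SE of 0.71. In iWAT the same gene lay between 0.432 and 79.3 CPM in KO and between 0.513 and 26.5 CPM in WT.

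Whether the difference between labels itself differed between iWAT and pituitary was tested in 1 fit over all 20 libraries. Unlike the label comparisons above, fitted in each tissue alone, it used 1 estimate of spread per gene for both tissues. Its calls are therefore limited by the wider spread of the iWAT libraries. Of the 35 genes 0 were called, and 0 of all 17731 genes (0%; edgeR), with 0 of the 35 and 427 of all genes (2.41%) at an unadjusted p under 0.05. DESeq2 called 1 gene (0.00564%), none of the 35, and limma voom called 0, with 0 and 1 of the 35 and 526 and 538 of all genes at an unadjusted p under 0.05 (2.97% and 3.03%). The median of the difference was 0.11 on the log2 scale, with 27 positive, and it ranged from -0.25 to 0.26 when mice were left out in turn.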

How the data were processed

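Poly(A) RNA of 20 libraries, 5 for each label and tissue, was sequenced, and the authors deposited raw read counts per gene, with gene coordinates and lengths. Reads were mapped with STAR 2.4.0 and counted with featureCounts 1.4.4 on mm10 (GRCm38), per the submitters' processing notes. The deposited counts were made with no strand option and reads shared by overlapping genes were counted for each, per the file headers, so such genes share reads.

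From these counts, each comparison was fitted over all genes with edgeR 4.0.16 in R 4.3.3. The settings were genes kept by filterByExpr, TMM scaling, quasi-likelihood test with robust dispersion, Benjamini-Hochberg adjustment and a threshold of 0.05. The code was also run on simulated counts, drawn independently with planted changes. That run does not show how the tests perform on libraries that vary together, as those of iWAT did. DESeq2 1.42.0 and limma 3.58.1 voom with quality weights, other scalings and filters, leaving out libraries, age, marker scores as covariates and the replicate number as a block were alternatives. The labels name no molecular identifiers, so counting error may be understated. Genes named are all 35 of the set, those called between labels (the 5 smallest p where none was), and of the other pathway genes those called between labels and the 4 with the largest change each way between tissues. The members, lists and tests were chosen with earlier results of these data known. Promoter sequences are RefSeq's. Where a fitted fold would rest on a tissue at or near 0 reads, levels are given.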

Additional observations from a re-analysis of the deposited data

Results flagged for a closer look

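The 35 genes in 4 groups of 5 libraries gave 140 groups. In 9 of them the highest or lowest library had a gap to the nearest of the others, divided by the group's range, above 0.71. This is near the share of about 5% that chance gives for independent, normal values. These genes moved together, so that share is only a guide. In iWAT, KO replicate 50 stood high for Plin5 (164.8 CPM, the next 35.63), Cpt1b (62.37 CPM, the next 19.4) and Pdk4 (1531 CPM, the next 516.3). WT replicate 48 stood low for Cidec (929.9 CPM, the next 2019) and high for Fabp3 (10.31 CPM, the next 1.424). WT replicate 49 stood high for Pdk4 (737.6 CPM, the next 403), and WT replicate 56 for Ppara (72.16 CPM, the next 45.12). In the pituitary, KO replicate 50 stood low for Acadm (34.58 CPM, the next 40.39) and WT replicate 33 low for Pnpla2 (31.72 CPM, the next 44.97). The causes were not tested.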

How the results depend on the processing

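Between labels, 0 of the genes of the set were called under any alternative in iWAT, and in the pituitary 0 except 1 (Plin2) without KO replicate 31, while over all pituitary genes 288 were called by DESeq2, 44 with age, 5 among 21-week mice, 1 in the fit over all 20 libraries and 50 to 112 without single libraries. In iWAT the point estimates of uncalled genes turned sign. Among 21-week mice Pnpla3 had -0.23, Plin1 -0.36, Plin5 -0.0247, Fabp3 0.15 and Fabp5 -0.0725. Without replicates 50 and 48 together, an alternative chosen after seeing the data, Plin1 had -0.19, Plin5 -0.58 and Fabp3 0.29. Plin5 had -0.31 by limma voom and -0.39 with the lymph node score. Without single libraries Plin1 ran from -0.00613 to 0.46, Plin5 from -0.51 to 0.73 and Fabp3 from -1.64 to 0.17.

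Between tissues in WT, Fabp3 turned to -0.0171 with total counts and -0.95 by limma voom (adjusted p = 0.0429, over the alternatives 1.96e-04 to 0.998), and ran from -1.26 to 0.28 without single libraries. In KO, Plin3 had -0.0451 with total counts, and Fabp3 passed the test with total counts, by limma voom and without KO iWAT replicate 31. The replicate number as a block gave 31 higher and 1 lower in WT (77.5% of all genes called) and 30 and 1 in KO (72.6% of all). Under it Pnpla3 in WT (0.71) and Cpt1b in KO (1.35) did not pass, Fabp3 in WT had -0.58, and the difference of effects had 0 calls. Deviations of same-numbered libraries correlated at -0.07 to 0.12 and 7 of 10 numbers matched their own number best, a hint from the data only. Libraries of the same number also share genotype label and age, but the labels do not say that they come from the same animal.

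For the difference of effects DESeq2 and the age fit called 1 gene of all. Plin5 had -0.16 by limma voom, and without single mice Abhd5 ran from -0.0608 to 0.40, Plin5 from -0.45 to 1.01, Fabp3 from -1.42 to 0.32 and Pdk4 from -0.28 to 0.83. Slope counts for the set and for all genes were as follows. On the muscle score they were 0 and 3 without the 2 farthest libraries, 5 and 357 without genotype, 0 and 6 with both scores, and 0 to 28 and 7 to 5010 without single libraries. On the adipocyte score they were 4 and 84 with total counts, 0 and 0 without the 2 farthest libraries (Fabp3 0.84), 5 and 223 with both scores, 3522 of all genes without genotype, and 0 to 14 and 0 to 2180 without single libraries. On the brown and beige score they were 0 and 0 without the 2 farthest libraries and 0 to 24 and 0 to 3779 without single libraries, and on the lymph node score 14 and 2392, and 8 to 30 and 3313 to 5952. The causes were not tested.

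With 5 libraries a group and a biological coefficient of variation of 0.307 in iWAT and 0.101 in the pituitary, the stated errors limit what could be detected. KO and WT mice differed in age (mean 20.6 and 19.6 weeks), and age and label overlap only at 19 and 21 weeks.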
